A study of Homo sapiens with 6 samples.

Results

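The replication-dependent histone genes are the clustered genes that supply linker histone H1 and the core histones H2A, H2B, H3 and H4. They were taken as every row of the gene table whose symbol has the older form HIST, cluster number, histone type and letter, without the pseudogene mark PS. The rule found 75 genes among the 36459 in the table, of which 6 are named for H1, 17 for H2A, 22 for H2B, 15 for H3 and 15 for H4. By cluster, 55 are HIST1 genes, 15 HIST2, 4 HIST3 and 1 HIST4. Of the 74 that could be matched to current annotation 4 are called pseudogenes (HIST2H2BA, HIST2H2BB, HIST2H3DP1 and HIST3H2BA), and all 4 were at 0 counts in every library. The other, HIST2H2BD, is an older name of 2 current genes, both pseudogenes, and held 661 counts.

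RNA was sequenced from PC9 cells, an established human non-small cell lung cancer line, in 3 libraries labelled Parental and 3 labelled Persister. The parental libraries came from 3 cultures without drug. The persister (PS) libraries were made from cells that had lived through 6 days with the EGFR kinase inhibitor erlotinib at 15 µM, from 9 cultures pooled into 3. Both groups are the same line, so the data describe a single genetic background.

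A replication-dependent histone gene is transcribed mainly in S phase, when new DNA has to be packed into nucleosomes. Its messenger RNA is unusual because it normally ends in a short hairpin, the stem-loop, and not in a poly-A tail. The stem-loop-binding protein SLBP and the U7 small nuclear ribonucleoprotein direct the cut just after the hairpin. Some of these genes also have a poly-A signal further downstream and can give longer, polyadenylated transcripts, a form known from differentiated and non-dividing cells. The libraries were made from poly-A RNA, so they hold only the polyadenylated part of the histone RNA, or stem-loop RNA carried over, and the total histone RNA of the cells was not measured. The members together took between 0.0128% and 0.0129% of the gene counts in PC9 and between 0.0176% and 0.0179% in PS. In bulk RNA, fewer cells that express a gene and less RNA per cell cannot be told apart.

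The stem-loop marks where the usual histone mRNA stops, so it is shown for the members described below. A search of the 200 bases after the stop codon found a stem-loop of 6 paired bases and a 4-base loop in 70 of 70 members with an annotated coding sequence, in 10 different sequences. Each line gives the stem-loop in capitals with its flanks in lower case, in the sense of the gene (GRCh38).
HIST1H1C, chr6:26055737-26055766, minus strand: cccaaaaGGCTCTTTTCAGAGCCaccactg
HIST1H2AC, chr6:26124662-26124691, plus strand: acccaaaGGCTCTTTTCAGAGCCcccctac
HIST1H2BC, chr6:26123465-26123494, minus strand: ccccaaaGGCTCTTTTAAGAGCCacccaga
HIST1H2BD, chr6:26158580-26158609, plus strand: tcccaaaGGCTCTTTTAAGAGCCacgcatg
HIST1H2BK, chr6:27146359-27146388, minus strand: ccccaaaGGCTCTTTTAAGAGCCacttaaa
HIST1H3E, chr6:26225589-26225618, plus strand: atccaaaGGCTCTTCTCAGAGCCaaccact
HIST1H4H, chr6:26285124-26285153, minus strand: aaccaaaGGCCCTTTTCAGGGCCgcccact
HIST2H4B, chr1:149860762-149860791, minus strand: tcccaaaGGCCCTTTTTAGGGCCgaccact
HIST3H2A, chr1:228457362-228457391, minus strand: acataaaGGCTCTTTTCAGAGCCacctact
The stem-loop of HIST1H1C, HIST1H2AC and HIST3H2A was the commonest, found in 40 members. That of HIST1H2BC, HIST1H2BD and HIST1H2BK was found in 10. All 15 H4 genes had forms of their own, of which that of HIST1H4H was found in 10 members and that of HIST2H4B in 4. The stem-loop of HIST1H3E was found in no other member.

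The transcript table held 102 transcripts of the members. Of these, 66 ended within 100 bases of the stem-loop, 30 ran more than 100 bases past it, in part by splicing to an exon far downstream, 1 ended before it, and for 5 no stem-loop was found. For the members called higher or lower below, the last 30 bases of the longer transcript with the most counts are shown with the poly-A signal in capitals, AATAAA or the variant ATTAAA. HIST1H2AC is left out, since its most counted longer transcript held neither signal in its last 50 bases, and HIST1H1C and HIST1H2BK had no longer transcript.
HIST1H2BC, spliced transcript of 659 bases: agacaaaATTAAAataactcctagtatctc
HIST1H2BD, spliced transcript of 789 bases: taattAATAAAatctgcggagaattgtaaa
HIST1H2BE, spliced transcript of 2585 bases: taaaggaaaaAATAAAaccctcttccctct
HIST1H2BJ, spliced transcript of 950 bases: gaataaatgAATAAAgtaatattcctctgc
HIST1H4H, spliced transcript of 2163 bases: agaattgtgaaaaAATAAAtgtttaagcca
HIST2H2BE, unspliced transcript of 2224 bases: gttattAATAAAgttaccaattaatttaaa
HIST3H2A, unspliced transcript of 895 bases: tctgatATTAAAagtatttatgatctctaa
Over the last 50 bases, 18 of the 30 longer transcripts held either signal, 15 with AATAAA and 3 with ATTAAA. Of the 66 that end at the stem-loop, 2 did, both with AATAAA. By gene, 16 members had at least 1 transcript past the stem-loop, while 58 had none.

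Most members had few reads. Counts were 0 in all 6 libraries for 9 members and summed to between 1 and 10 for 18 more. In 28 members no library held more than 3 counts, the limit that a count of 0 allows here, which corresponds to between 0.0872 and 0.103 CPM (counts scaled to the size of the library) by library and covers counting error only. The expression filter, which is set for the group in which a gene is high, left 28 members to test and 47 that were not tested. The 47 held 2.01% of all member counts.

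By edgeR's quasi-likelihood test of PS against PC9, with a Benjamini-Hochberg adjusted p under 0.01 over all genes tested as the limit, 9 of the 28 members tested were higher in PS and 1 was lower. Over all 14626 genes tested 56.8% passed the limit, 28.7% higher and 28.1% lower in PS. The median log2 fold change was 0.28 over the members tested and -0.006 over all genes tested. For 12 members every PS library was above every PC9 library, and for 3 every PS library was below. The same held for 35.5% and 35.7% of all genes tested. The share of members past the limit was below that of all genes. The 9 members that rose held 74.6% of all member counts.

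**Figure D1:**
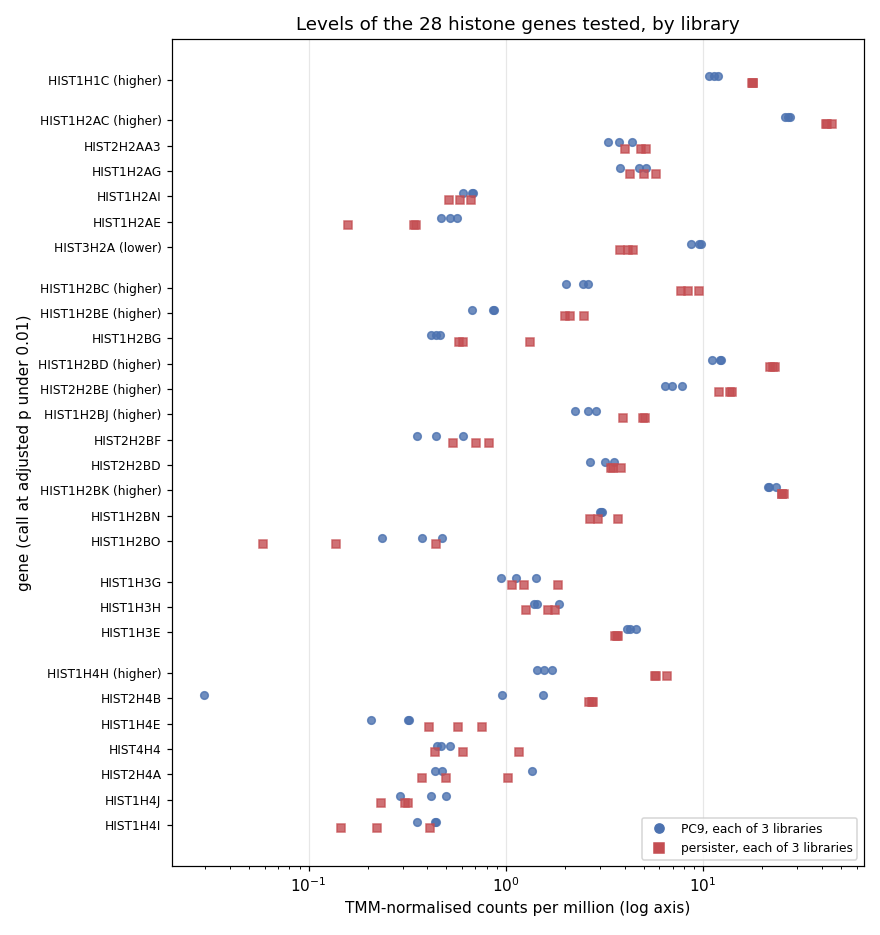
Level of each of the 28 histone genes tested, in TMM-normalised CPM on a log axis, with a blue circle for each of the 3 PC9 libraries and a red square for each of the 3 PS libraries. The groups stand apart in 15 genes, with PS to the right in 12 of them and to the left in HIST1H2AE, HIST3H2A and HIST1H3E.

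The summed level of the 75 members was 128, 126 and 125 CPM in the PC9 libraries and 178, 183 and 183 CPM in the PS libraries. CPM here are TMM-normalised and are not divided by length, so they compare libraries and not genes. The sum was higher in each PS library than in any PC9 library. By type, the H1 sum went from 11.7 ± 0.586 (SD, n = 3) in PC9 to 18.3 ± 0.157 in PS, in CPM, a log2 ratio of 0.65. The H2A sum went from 47.0 ± 0.407 to 58.8 ± 1.51 CPM, a log2 ratio of 0.33. The H2B sum went from 55.0 ± 1.05 to 85.5 ± 2.48 CPM, a log2 ratio of 0.64. For these 3 types and for H4, the lowest PS library lay above the highest PC9 library. The H4 sum went from 5.02 ± 0.521 to 11.4 ± 1.18 CPM, a log2 ratio of 1.19 and the largest of the 5. Within this H4 sum, HIST1H4H alone held 1.58 ± 0.142 CPM in PC9 and 6.01 ± 0.491 CPM in PS. The H3 sum was 7.86 ± 0.150 CPM in PC9 and 7.25 ± 0.420 CPM in PS, a log2 ratio of -0.12, with each PS library below each PC9 library. No test was made of these sums, since the members were chosen.

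**Figure D2:**
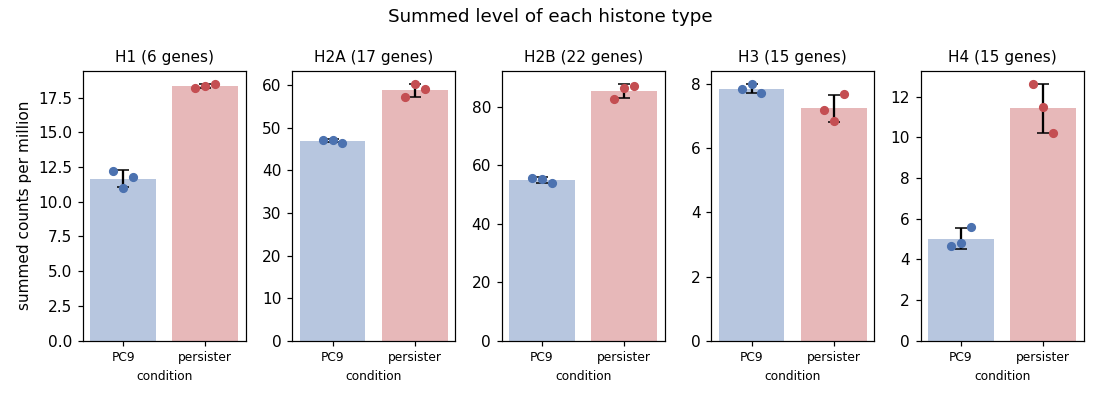
Summed CPM of the members of each histone type, with a point for each library, bars for the mean and error bars for the SD over 3 libraries, each panel on its own axis from 0. The H1, H2A, H2B and H4 sums are higher in PS, and the H3 sums lie between 6.86 and 8.02 in all 6 libraries.

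Linker histone H1 binds the DNA that enters and leaves the nucleosome, and 1 of its 6 members passed the expression filter. HIST1H1C (chromosome 6, 26055740 to 26056470, minus strand), which encodes the widely expressed H1.2 subtype, had 11.9, 10.7 and 11.3 CPM in PC9 and 17.7, 17.9 and 18.0 CPM in PS. The groups did not overlap, and the log2 fold change was 0.66 with a standard error of 0.063 (edgeR adjusted p = 4.09e-06). Its single annotated transcript has 731 bases, 1 exon and an end 4 bases past the stem-loop. The other 5 H1 members were at or below 0.263 CPM in every library. They include HIST1H1T, the testis form, with at most 0.0585 CPM.

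H2A and H2B pair into dimers that are added to the nucleosome after H3 and H4. Of 17 H2A members 6 were tested, of which 1 rose and 1 fell. HIST1H2AC (chromosome 6, 26124145 to 26139116, plus strand) took 22.7% of all member counts, with 27.7, 26.1 and 27.1 CPM in PC9 and 41.8, 45.1 and 42.6 CPM in PS. All PS libraries were above all PC9 libraries, with a log2 fold change of 0.68 and a standard error of 0.050 (edgeR adjusted p = 5.16e-07). HIST3H2A (chromosome 1, 228434777 to 228457873, minus strand), in the small cluster on the long arm of chromosome 1, went the other way. Its level was 8.66, 9.75 and 9.53 CPM in PC9 and 4.18, 3.78 and 4.39 CPM in PS. The log2 fold change was -1.18 with a standard error of 0.095 (edgeR adjusted p = 1.15e-06), and HIST3H2A was the only member of the 28 that fell past the limit. The gene row of HIST3H2A held 1342 counts over all libraries. Of these, 671 were on the 1 annotated transcript that was counted, and the other 671 on no transcript matched to the annotation used here. The transcript table holds an unmatched transcript with the same count as the annotated one in each library, and the sum of both is unaffected by how reads were divided between them. HIST1H2AE, at 0.519 ± 0.0472 CPM in PC9 and 0.284 ± 0.109 CPM in PS (n = 3), had a log2 fold change of -0.86 that did not pass the limit (edgeR adjusted p = 0.0444). HIST1H2AG, HIST1H2AI and HIST2H2AA3 had log2 fold changes of 0.15, -0.15 and 0.29 with overlapping groups.

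H2B had the most members past the limit, with 6 of 11 tested higher and none lower (7 of 11 had an unadjusted p under 0.05, and DESeq2 called 5 higher). HIST1H2BC (chromosome 6, 26086317 to 26123926, minus strand) had 2.62, 2.03 and 2.47 CPM in PC9 and 7.71, 9.53 and 8.37 CPM in PS. Its log2 fold change of 1.85 with a standard error of 0.13 was the largest of the H2B genes (edgeR adjusted p = 2.81e-07). HIST1H2BE (chromosome 6, 26172059 to 26184655, plus strand) had 0.872, 0.676 and 0.861 CPM in PC9 and 2.12, 2.48 and 1.99 CPM in PS, a log2 fold change of 1.45 with a standard error of 0.19 (edgeR adjusted p = 5.07e-05). For both genes the lowest PS library was above the highest PC9 library. HIST1H2BC shared 62.1% of its 31-base words with other genes and HIST1H2BE 33.8%, so part of their reads could be assigned to other genes.

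HIST1H2BD (chromosome 6, 26158122 to 26171349, plus strand) had 12.3, 11.1 and 12.2 CPM in PC9 and 21.8, 22.7 and 23.1 CPM in PS, with a log2 fold change of 0.93 and a standard error of 0.061 (edgeR adjusted p = 2.24e-07). HIST2H2BE (chromosome 1, 149884459 to 149886682, minus strand) had 7.85, 6.93 and 6.39 CPM in PC9 and 12.1, 14.1 and 13.7 CPM in PS. Its log2 fold change was 0.92 with a standard error of 0.094 (edgeR adjusted p = 7.21e-06). HIST1H2BJ (chromosome 6, 27125897 to 27132795, minus strand) had 2.24, 2.88 and 2.61 CPM in PC9 and 5.07, 3.91 and 4.97 CPM in PS, a log2 fold change of 0.85 by edgeR (adjusted p = 0.000340). In these 3 genes the groups stood apart as well.

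HIST1H2BK (chromosome 6, 27146361 to 27146855, minus strand) moved least of the 9, from 21.4, 23.4 and 21.7 CPM in PC9 to 25.1, 25.6 and 25.1 CPM in PS. The log2 fold change was 0.19 with a standard error of 0.053 (edgeR adjusted p = 0.00892). The call was lost under 11 of 18 alternatives, among them DESeq2 (adjusted p = 0.0271) and the omission of any 1 library other than PC9 replicate 2 (adjusted p between 0.0194 and 0.0427). HIST1H2BK also shared 71% of its 31-base words with other genes. Without the members that share more than 50% of these words, and without HIST2H2BD, for which sharing was not computed, 7 of 19 tested were higher and 1 lower.

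The other 5 H2B genes tested did not pass the limit. HIST1H2BG was at 0.440 ± 0.0245 CPM in PC9 and 0.834 ± 0.418 CPM in PS, and its log2 fold change was 0.94 (edgeR adjusted p = 0.0379). Its PS libraries had 0.582, 0.604 and 1.32 CPM, all above the PC9 libraries. HIST1H2BO had the lowest value of the type, a log2 fold change of -0.77 with a standard error of 0.57, on 0.378, 0.235 and 0.475 CPM in PC9 and 0.137, 0.445 and 0.0585 CPM in PS. It lay between -1.89 and -0.29 over 17 alternatives. HIST2H2BF, HIST2H2BD and HIST1H2BN had log2 fold changes of 0.54, 0.20 and 0.04 with overlapping groups. HIST2H2BD could not be assigned to either of its 2 current pseudogenes and has no coordinates here.

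H3 and H4 form the tetramer at the centre of the nucleosome. Of 15 H3 members 3 were tested, and edgeR called none in either direction (1 had an unadjusted p under 0.05, and DESeq2 called 0). HIST1H3E (chromosome 6, 26224199 to 26227473, plus strand) had 4.24, 4.55 and 4.10 CPM in PC9 and 3.70, 3.56 and 3.66 CPM in PS. Every PS library was below every PC9 library, but the log2 fold change of -0.24 with a standard error of 0.10 did not pass the limit (edgeR adjusted p = 0.0609). HIST1H3G set the upper end of the type, with 1.42, 1.12 and 0.950 CPM in PC9 and 1.23, 1.08 and 1.84 CPM in PS, a log2 fold change of 0.26 with a standard error of 0.25. HIST1H3H had a log2 fold change of -0.00 with a standard error of 0.20. The remaining 12 H3 members reached at most 0.291 CPM in any library.

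Of 15 H4 members 7 were tested and 1 rose. HIST1H4H (chromosome 6, 26277609 to 26285638, minus strand) had 1.57, 1.44 and 1.72 CPM in PC9 and 6.58, 5.72 and 5.74 CPM in PS. Its log2 fold change of 1.93 with a standard error of 0.13 was the largest of all members tested (edgeR adjusted p = 2.14e-07). The lower end of the type was HIST1H4I, with 0.436, 0.441 and 0.356 CPM in PC9 and 0.411, 0.222 and 0.146 CPM in PS, a log2 fold change of -0.69 with a standard error of 0.39 and a range from -1.15 to -0.39 over 17 alternatives. HIST1H4E, HIST4H4 and HIST1H4J had log2 fold changes of 1.00, 0.59 and -0.49 and did not pass the limit, with the smallest edgeR adjusted p, 0.0241, in HIST1H4E. The value of HIST4H4 lay between 0.12 and 0.87 over its alternatives. HIST1H4E was above PC9 in each PS library, and the groups of HIST4H4 and HIST1H4J overlapped.

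**Figure D3:**
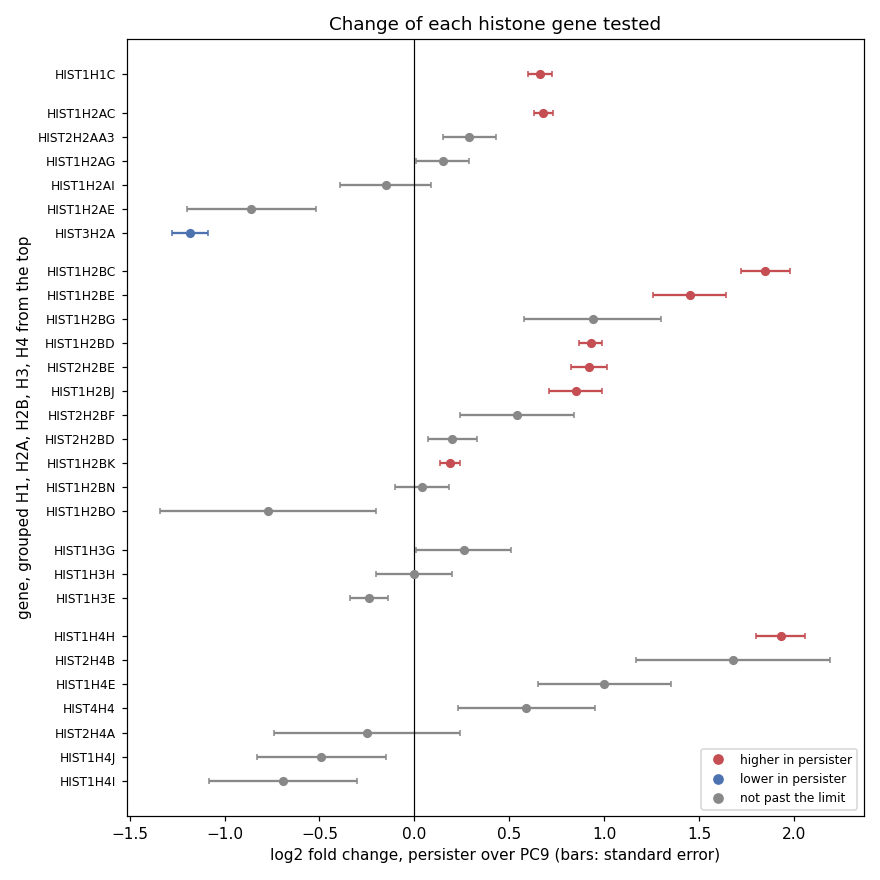
Log2 fold change of PS over PC9 for the 28 histone genes tested, with the standard error of the edgeR fit as bars, red for higher, blue for lower and grey for not past the adjusted p limit of 0.01. HIST1H4H at 1.93 and HIST1H2BC at 1.85 lie farthest to the right, and HIST3H2A at -1.18 lies farthest to the left.

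HIST2 holds duplicated genes whose reads cannot be told apart. HIST2H4A and HIST2H4B shared 98.6% and 100% of their 31-base words, and Kallisto divided the reads unevenly. HIST2H4A had 15, 46 and 16 counts in PC9 and 11, 32 and 17 in PS, while HIST2H4B had 33, 1 and 52 in PC9 and 80, 87 and 90 in PS. Taken singly, their log2 fold changes were -0.25 and 1.68, and neither passed the limit (edgeR adjusted p = 0.662 and 0.0128), though HIST2H4B passed it under 5 of 17 alternatives, with values between 1.11 and 2.75. When both copies were summed, the counts were 48, 47 and 68 in PC9 and 91, 119 and 107 in PS, and the groups stood apart. The log2 fold change of the sum was 1.06 with a standard error of 0.18 (edgeR adjusted p = 0.000278), which made 10 members higher in PS. HIST2H2AA3 and HIST2H2AA4 shared 100% and 99.8%, with all counts on HIST2H2AA3 in 4 libraries. Their sum was 141, 148 and 126 counts in PC9 and 150, 153 and 163 in PS, and the groups stood apart. The log2 fold change of this sum was 0.28 and did not pass the limit (edgeR adjusted p = 0.0347). HIST2H3A and HIST2H3C had identical counts in every library, at most 6, since the reads were split evenly.

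**Figure D4:**
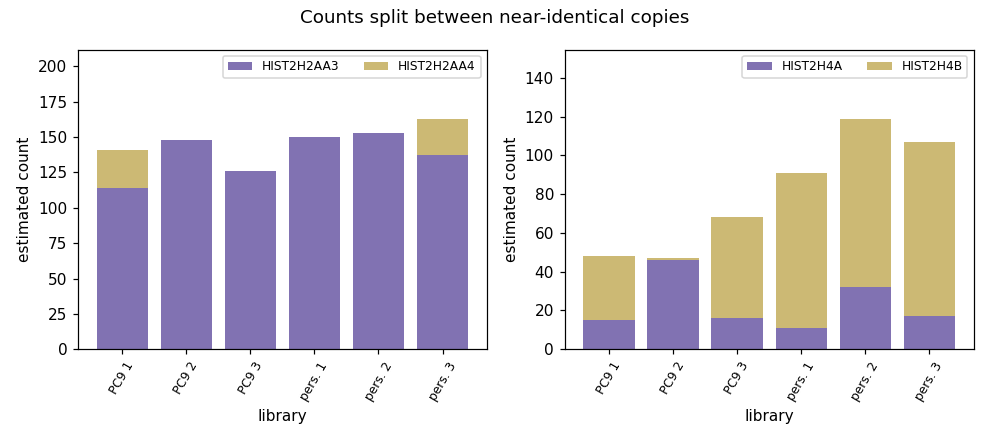
Estimated counts of the near-identical copies HIST2H2AA3 and HIST2H2AA4, and HIST2H4A and HIST2H4B, stacked for each of the 6 libraries. The split between copies differs from library to library, as in PC9 replicate 2, where HIST2H4B holds 1 count of 47.

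The members that rose were compared by the kind of transcript annotated for them. Of the 15 members tested with a transcript that runs past the stem-loop, 7 were higher and 1 was lower, with a median log2 fold change of 0.68. Of the 12 annotated only with transcripts ending at the stem-loop, 2 were higher (HIST1H1C and HIST1H2BK), with a median of 0.17. Among these 12, HIST1H2AE, HIST1H2AI, HIST1H2BG, HIST1H2BO, HIST1H4E, HIST1H4I and HIST1H4J held only between 57 and 126 counts over all libraries. Of the 15, HIST2H2BF and HIST4H4 held 113 and 117. The groups thus also differed in depth, and low counts limit what can be called. The genes with a longer transcript held 62.3% of member counts. The calls and medians by kind of transcript are a description with no test.

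At the transcript level 33 of the 102 transcripts were tested, of which 6 were higher and 1 lower in PS by the same edgeR test. Over all transcripts tested 3.89% were higher and 3.91% lower. Of the 17 tested that run past the stem-loop 5 rose and 1 fell, and of the 16 that end at it 1 rose. The transcript of HIST1H2BC that is spliced past the stem-loop (ENST00000314332, chromosome 6, 26114873 to 26123910) had 1.73, 1.71 and 1.93 CPM in PC9 and 6.51, 8.29 and 6.95 CPM in PS. Its log2 fold change was 2.02 with a standard error of 0.17 (edgeR adjusted p = 0.000999). Its short transcript had 0.907, 0.359 and 0.574 CPM in PC9 and 1.16, 1.20 and 1.40 CPM in PS and did not pass the limit (log2 fold change 1.03, edgeR adjusted p = 0.166).

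HIST1H2BD was counted almost only on its transcript spliced past the stem-loop (ENST00000289316), with 3328 of the counts against 24 on the short form. That transcript had 12.2, 11.0 and 12.4 CPM in PC9 and 21.7, 22.7 and 22.8 CPM in PS, a log2 fold change of 0.91 by edgeR (adjusted p = 0.00100). HIST2H2BE has 1 unspliced transcript (ENST00000369155) that runs 1729 bases past the stem-loop, with a log2 fold change of 0.89 by edgeR (adjusted p = 0.00555). The groups of each stood apart.

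In HIST1H4H nearly all matched counts were on transcripts that run past the stem-loop and are annotated as targets of nonsense-mediated decay. The 3-exon form (ENST00000634956) had 0.731, 0.838 and 0.907 CPM in PC9 and 3.17, 3.10 and 2.57 CPM in PS, a log2 fold change of 1.83 by edgeR (adjusted p = 0.00433). The 2-exon form (ENST00000634560) had a log2 fold change of 2.01 by edgeR (adjusted p = 0.00942). The short, usual form of HIST1H4H had 2 counts in all, and 182 counts of the gene row were on no transcript matched to the annotation. The single transcript of HIST1H1C (ENST00000343677), which ends at the stem-loop, rose with a log2 fold change of 0.64 by edgeR (adjusted p = 0.00334). The transcript of HIST3H2A (ENST00000366695), which runs 390 bases past it, fell from 4.36, 4.97 and 4.84 CPM to 2.08, 1.90 and 2.19 CPM (log2 fold change -1.20, edgeR adjusted p = 0.00619). These transcript calls were less stable than the gene calls. Leaving out any 1 library left 2 or 3 of the 6 rises and not the fall of HIST3H2A, and the rises of HIST1H2BC and HIST1H2BD were called under each of these omissions.

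**Figure D5:**
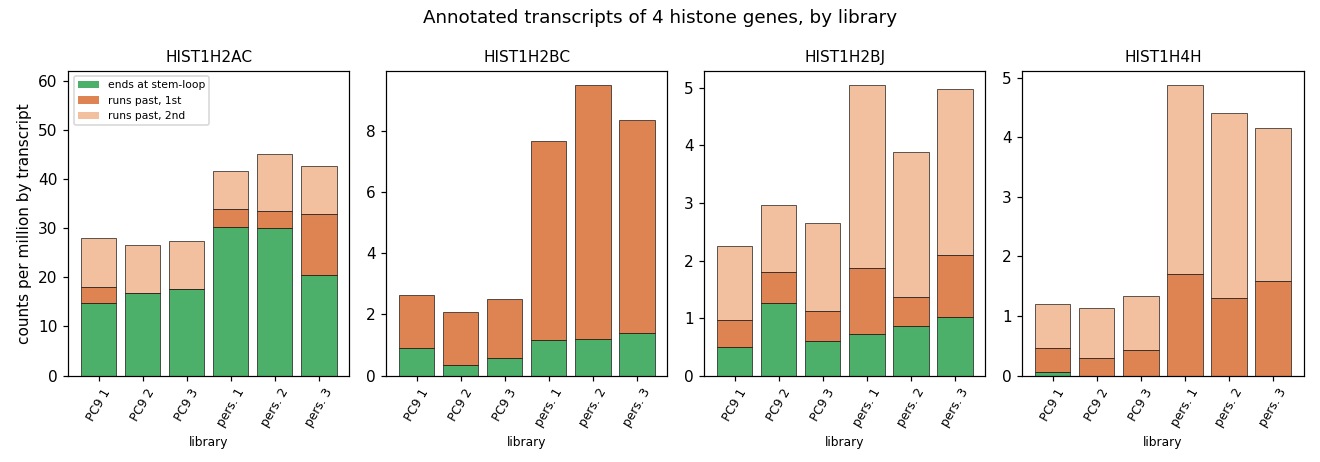
CPM of each annotated transcript of 4 histone genes, stacked for the 6 libraries, with the form that ends at the stem-loop in green and the forms that run past it in orange shades, each panel on its own axis. In HIST1H2BC and HIST1H4H the orange part grows in PS, and in HIST1H2AC the division among forms differs between libraries of the same group.

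Whether the share of transcripts within a gene changed was tested for the 5 members with more than 1 transcript past the filter. edgeR's test of transcript usage called none of the 5, with none at an unadjusted p under 0.05, against 1.86% of the 10545 genes tested. In HIST1H2BC the spliced form held 65.6%, 82.6% and 77.1% of the counts in PC9 and 84.9%, 87.3% and 83.2% in PS. The PS shares were all above those of PC9, and the adjusted p was 1.00 in the edgeR test. In HIST1H2AC the short form held 53.0%, 63.5% and 64.1% in PC9 and 72.8%, 66.8% and 47.9% in PS. A long form of the same gene (ENST00000314088) had 11.2%, 0.00% and 0.00% in PC9 and 8.70%, 7.53% and 29.4% in PS. Without PC9 replicate 1, the usage of HIST1H2AC passed the limit (edgeR adjusted p = 0.00562). Over all matched member transcripts, the forms past the stem-loop held 42.9% ± 1.73 of the counts in PC9 and 48.3% ± 3.21 in PS (SD, n = 3).

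Many H2A and H2B genes lie in pairs that are transcribed away from each other from starts between 170 and 251 bases apart, and the promoter between them is shared. HIST1H2BC and HIST1H2AC, 219 bases apart, were the only such pair in which both partners passed the limit, and both were higher, with log2 fold changes of 1.85 and 0.68. In the pair of HIST1H2BJ and HIST1H2AG, 248 bases apart, the values were 0.85 and 0.15, and only HIST1H2BJ passed the limit. Whether the partners differed was not tested. In other pairs 1 partner held nearly all counts. HIST1H2BK had 4662 counts against 14 for HIST1H2AH, HIST2H2BE had 1988 against 21 for HIST2H2AC, and HIST1H2BN had 606 against 11 for HIST1H2AK. In the HIST3 pair, HIST3H2A had 1342 counts and HIST3H2BB 46. HIST1H2BG and HIST1H2AE, 233 bases apart, had log2 fold changes of 0.94 and -0.86, neither past the limit.

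The promoters of HIST1H2BC, which rose, and of HIST3H2A, which fell, are shown from 250 bases before to 50 bases after the start (RefSeq, GRCh38.p14), with the motifs searched in capitals. These were the octamer ATTTGCAT and CCAAT on both strands, and TATAA in the sense of the gene.
HIST1H2BC, chr6:26123877-26124176, minus strand: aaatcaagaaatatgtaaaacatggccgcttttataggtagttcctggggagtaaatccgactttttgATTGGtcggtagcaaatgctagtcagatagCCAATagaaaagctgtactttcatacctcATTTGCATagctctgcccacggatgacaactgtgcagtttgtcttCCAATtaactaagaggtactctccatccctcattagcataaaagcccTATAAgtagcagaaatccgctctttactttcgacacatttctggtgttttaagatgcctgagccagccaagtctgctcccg
HIST3H2A, chr1:228457824-228458123, minus strand: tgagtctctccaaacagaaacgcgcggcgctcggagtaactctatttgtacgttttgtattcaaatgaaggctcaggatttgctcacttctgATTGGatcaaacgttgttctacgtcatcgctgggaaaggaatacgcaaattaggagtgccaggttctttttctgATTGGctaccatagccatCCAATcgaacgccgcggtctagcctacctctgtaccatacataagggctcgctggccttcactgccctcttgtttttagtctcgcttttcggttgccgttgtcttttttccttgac
The HIST1H2BC window held 1 octamer, 3 CCAAT boxes and 1 TATAA, and that of HIST3H2A held 3 CCAAT boxes. Other members that rose differed from HIST1H2BC in these motifs. HIST1H1C had neither octamer nor TATAA, and HIST1H2BD had no octamer, while HIST1H2AC had both motifs. Whether the motifs go with the direction of change was not tested. Promoters were found for 65 members, of which 64 were counted. The window given for HIST1H3D was left out, since it is that of HIST1H2AD and lies 2007 bases from the annotated start of HIST1H3D. The octamer was in 77.8% of 18 H2B and 68.8% of 16 H2A promoters, and in none of the 6 H1, 11 H3 or 13 H4 promoters, beside 1.77% of 35116 promoters in all. CCAAT was in every H1, H2A, H2B and H3 promoter and in 23.1% of the H4 promoters, beside 34.6% in all. A match is a description of the sequence and not evidence that a factor binds.

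The genes that make, process and package histone RNA were read from lists written from general knowledge, for which the counts stand beside the 28.7% and 28.1% of all genes called higher and lower. The list of replication-independent histones holds core histone variants and the linker histones H1F0 and H1FX. Most, but not all, are made only from ordinary polyadenylated mRNA. Of 11 tested 3 were higher and 2 lower, with a median log2 fold change of 0.11. H2AFJ had 37.5 ± 2.99 CPM in PC9 and 18.5, 17.3 and 18.9 CPM in PS, a log2 fold change of -1.04 by edgeR (adjusted p = 1.78e-07). H3F3A, which encodes the variant H3.3, fell by 0.41 on the log2 scale (edgeR adjusted p = 1.10e-06), while H3F3B, which encodes the same protein, had a log2 fold change of 0.09 that did not pass the limit. CENPA, the centromeric H3, rose with a log2 fold change of 0.54, H2AFY, which encodes macroH2A1, with 0.31 and H2AFZ with 0.26 (edgeR adjusted p at most 0.000268). H2AFX and the linker histone H1F0 had log2 fold changes of 0.16 and 0.11 and did not pass the limit (edgeR adjusted p = 0.0968 and 0.0305).

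Of the 21 genes tested for processing and decay of stem-loop RNA, 6 were higher and 5 lower, with a median log2 fold change of -0.03. SLBP, which binds the stem-loop, had 96.6 ± 2.20 CPM in PC9 and 83.1, 82.4 and 79.7 CPM in PS, each below every PC9 library. Its log2 fold change was -0.24 with a standard error of 0.039 (edgeR adjusted p = 0.000233). LSM10, a subunit of the U7 particle, rose with a log2 fold change of 0.47, and the cap-binding NCBP1 and its partner SRRT rose with 0.52 and 0.61. CSTF2, a cleavage factor, rose with a log2 fold change of 0.30 by edgeR (adjusted p at most 0.000218 for these 4 genes). LSM11, another subunit of the U7 particle, fell by 0.51 on the log2 scale (edgeR adjusted p = 0.00139), so the U7 subunits did not move together. Of 16 genes for cleavage and polyadenylation 1 was higher and 7 lower, with a median of -0.09. The poly-A polymerase gene PAPOLA was the 1 that rose, with a log2 fold change of 0.30 by edgeR (adjusted p = 0.000170). CSTF3, FIP1L1 and PCF11, which encode other parts of the cleavage machinery, had log2 fold changes of -0.44, -0.34 and -0.34 (edgeR adjusted p at most 6.48e-05).

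Of 15 genes for histone gene transcription, 5 were higher and 3 lower, with a median log2 fold change of 0.04. NPAT, the coactivator at histone gene clusters, had 37.9 ± 3.27 CPM in PC9 and 37.3, 35.9 and 34.3 CPM in PS, with overlapping groups and -0.08 as the log2 fold change (edgeR adjusted p = 0.294). The kinase gene CDK2 fell by 0.32 on the log2 scale, and its partner CCNE1, CDC25A and NFYB rose with log2 fold changes of 0.29, 0.25 and 0.20 (edgeR adjusted p at most 0.00176). Of 22 genes for histone chaperones and assembly, 8 were higher and 5 lower, with a median of -0.02. RBBP4, NASP, IPO9 and UBN1 had log2 fold changes of -0.61, -0.52, 0.36 and 0.42 (edgeR adjusted p at most 9.21e-06). NASP carries H3 and H4, and UBN1 belongs to the complex that deposits H3.3 outside replication.

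Of 24 genes for S phase and cycling, 9 were higher and 8 lower, with a median log2 fold change of 0.04. PCNA, the sliding clamp of DNA replication, had 193 ± 5.05 CPM in PC9 and 164, 167 and 162 CPM in PS, a log2 fold change of -0.24 by edgeR (adjusted p = 0.000160). The licensing factors CDT1 and MCM7 fell by 1.00 and 0.52 on the log2 scale, while the mitotic kinase gene PLK1 and the cyclin gene CCNA2 rose with log2 fold changes of 0.67 and 0.44 (edgeR adjusted p at most 1.25e-06). The members that rose were thus measured beside falls in PCNA, CDT1 and MCM7 and rises in PLK1 and CCNA2, and the part of cell cycle phase in the histone values was not tested. None of the 32 listed RNAs without a poly-A tail was in the gene table, so carry-over of such RNA was not measured.

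The total gene count was between 29476725 and 34893782 per library. Libraries within a group differed beyond sampling noise (chi-square divided by its degrees of freedom between 3.41 and 20.0), and all were kept as separate replicates. Of the markers of an epithelial line, all 6 were expressed in both groups, with CDH1 and EGFR higher in PS and EPCAM, KRT8, KRT18 and KRT19 lower. Their log2 fold changes lay between -1.03 for KRT19 and 0.60 for CDH1. Of 5 immune markers 1 passed the limit, CD68, with 74.8 ± 0.912 CPM in PC9 and 21.1 ± 1.62 CPM in PS. The defining leukocyte genes were low, with CD3E at 0 in every library and PTPRC at most at 0.356 CPM. Of 5 fibroblast markers 2 were higher, among them COL1A1 with 10.2 ± 0.340 CPM in PC9 and 28.3 ± 1.79 CPM in PS, and the summed level of the list was between 10.4 and 11.0 CPM in PC9 and between 27.4 and 30.8 CPM in PS. Of 3 endothelial markers 1 passed the limit, PECAM1, with 4.37 ± 0.394 CPM in PC9 and 0.214 ± 0.0873 CPM in PS, and VWF was at most at 0.527 CPM. The summed endothelial level was between 8.05 and 8.82 CPM in PC9 and between 3.25 and 3.80 CPM in PS. The counts of markers called stand beside 28.7% higher and 28.1% lower over all genes tested. The part of the marker genes in the histone values was not tested.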

How the data were processed

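Poly-A RNA of 3 parental and 3 persister libraries of PC9 cells was compared. The authors pseudoaligned the reads with Kallisto (version 0.46.1 per the labels) to Ensembl transcripts of GRCh38 and deposited its estimated counts, as whole numbers without normalization, per gene symbol and per transcript. The uncertainty of dividing reads between similar transcripts entered no test. Another laboratory's libraries, which the study combined with these in Sleuth, were not analysed here.

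Counts were tested in R 4.3.3 with edgeR 4.0.16 (filterByExpr, TMM, glmQLFit and glmQLFTest, Benjamini-Hochberg, limit 0.01), without a block. Standard errors were computed as the absolute log2 fold change over the root of the F statistic. Transcript usage was tested with diffSpliceDGE and its Simes p. The steps were checked on simulated counts. Library totals were 29476725 to 34893782. With 3 libraries against 3, an exact permutation test cannot give a p under 0.1. The persister libraries were pooled from cultures, so p-values measure the spread between these libraries.

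Of 75 members 74 were matched to GENCODE 44 through RefSeq synonyms and transcript counts, which gave coordinates, transcripts and stem-loops, and 65 to a RefSeq promoter, of which 1 was not counted because it lay over 1000 bases from every annotated start of its gene. All members that passed the filter are named, with values by library for those past the limit at a mean of at least 1 CPM and those at the ends of their type's range. Up to 4 genes of each list with the smallest p past the limit are named, with 8 others fixed by name. LSM11 and some marker genes not past the limit are named beside them. The members, lists and tests were chosen with earlier results of these data known. Alternatives were DESeq2 1.42.0, limma voom (limma 3.58.1), other normalizations, filters and limits, counts summed from transcripts, near-identical copies summed, a replicate block and each library left out. One alternative, which left out HIST2H2BD and the members sharing most 31-base words with other genes, was chosen after seeing the data.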

Additional observations from a re-analysis of the deposited data

How the results depend on the processing

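Members called higher in PS numbered between 8 and 10 with any 1 library left out, and HIST3H2A was the 1 called lower each time. Of 269 recomputed counts and sums, 237 kept their direction and stayed within 1.5 times, or 1 SD, of the value reported. Among these, H1, H2B and H4 members called lower and H3 members called either way were 0 in every setting, which counts as kept. The number of transcripts called higher was kept in 8 of 16 settings, and the number called lower in 8 of 16. With a fold change above 2 required, 3 members were higher (0 of H1, 0 of H2A, 2 of H2B) and 3 transcripts were higher. With an adjusted p under 0.05, 2 members were lower (both H2A) and 3 H4 members were higher. H4 members called higher numbered 2 without the expression filter, with near-identical copies summed and under the replicate block, and between 1 and 2 with a library left out. The log2 ratio of the H2A sum was 0.272 by library size only and 0.425 with counts summed from transcripts, and that of H2B was 0.584 by library size only. Without the expression filter 0 transcripts were lower. With a library left out, between 2 and 3 transcripts were higher and 0 lower, and between 0 and 1 members changed in transcript usage. Such fits hold fewer samples by construction.

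Replicate numbers did not pair the libraries: the correlations of same-numbered deviations from the group means were 0.12, 0.024 and 0.022. Under the replicate block 10 members were higher and 1 lower, while 0 transcripts were higher and 0 lower, and 0 members changed in usage. Among the members, fold changes reversed sign in 4 genes, none past the limit in the fit reported. HIST1H3H, at -0.000, had 0.003 with RLE factors and with limma voom, 0.000 with DESeq2, 0.004 without the filter and between -0.099 and 0.143 with a library left out. HIST1H2BN had -0.007 with upper-quartile factors, -0.018 by library size only and between -0.115 and 0.136 with a library left out, the lowest without PS replicate 3. HIST1H3G lay between -0.012, also without PS replicate 3, and 0.432. HIST2H4A had 1.064 when summed with its copy, which replaces its value by construction, and lay between -0.768 and 0.469 with a library left out, the highest without PC9 replicate 2. Otherwise the cause was not tested. Low counts limit the 47 members not tested, and no value here measures histone RNA without a poly-A tail.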
